A study of Mus musculus with 5 samples.

Results

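Basement membranes are the thin sheets of matrix on which epithelia and endothelia rest. The 10 genes described here encode their main structural chains: the 6 chains of collagen IV (Col4a1 to Col4a6) and 4 laminin chains (Lama1, Lama5, Lamb1 and Lamb2). They were taken by name from tables of 32793 genes, and each was found in both tables. RNA came from kidneys of mouse embryos at embryonic day 15.5. NICD_mut kidneys (2 libraries) carried Six2TGC/+, a Cre driver active in nephron progenitors, and RosaN1ICD∆PEST, a Rosa26 allele from which Cre releases activated Notch1 without its PEST domain. NICD_wt kidneys (3 libraries) were from littermates that carried RosaN1ICD∆PEST but no Cre, so the groups differ in the Cre driver and, with it, in the release of activated Notch1, and effects of these cannot be told apart. Only progenitors and their descendants are targeted by that driver, whereas endothelium, stroma and ureteric epithelium also make basement membrane. Whether the libraries came from separate animals or from pooled kidneys is not stated in the labels; p-values therefore cover only library-to-library spread, part of which may be technical.

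Collagen IV chains assemble inside the cell as triple helices, the α1 and α2 chains into the network found in nearly all basement membranes, and the α3, α4 and α5 chains into the network of the mature glomerular filter. Laminins are trimers of an α, a β and a γ chain. In the developing glomerulus the first basement membrane holds α1 and α2 collagen IV with laminin α1 and β1. These are later replaced by α3, α4 and α5 collagen IV, made by podocytes, with laminin α5 and β2. Mutations of Col4a3, Col4a4 or Col4a5 cause Alport syndrome, and loss of Lamb2 causes Pierson syndrome, both kidney filter diseases. Col4a1, Col4a2, Lama1 and Lamb1 are called the immature chains below, and Col4a3, Col4a4, Col4a5, Lama5 and Lamb2 the mature glomerular chains; Col4a6, a chain of other epithelial basement membranes, was placed in neither set.

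Libraries held 17361823 to 21356447 estimated counts, and the members 167 (Col4a3 in NICD_wt 3) to 75746 (Col4a1 in NICD_mut 2) each. The labels were checked on the transgene's gene and on the driver's lineage: Notch1 was at 288 and 324 CPM (counts scaled to a common depth) in NICD_mut against 120 to 142 in NICD_wt, and the progenitor gene Six2 was at 0.328 and 0.296 CPM against 134 to 141. Of the tested genes called in either direction 48.1% were higher in NICD_mut by the edgeR quasi-likelihood test on counts, and 62.1% by limma on log2(TPM + 1). Skeletal muscle markers stood apart in 1 library. In NICD_mut 1, 8 of them summed to 3619 TPM (a transcript level corrected for gene length and depth). The sum was next highest in NICD_wt 1, at 148 TPM, and was 15.5 to 22.4 TPM in the other libraries. The NICD_mut libraries differed more from each other (chi-square of counts per degree of freedom 36.3) than any pair of NICD_wt libraries did (4.59 to 7.15). The edgeR fit assumes a common spread for both groups, so its SEs and p-values may understate the spread within NICD_mut. Values without NICD_mut 1 are given for some of the results below.

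All 10 chains rose in NICD_mut (edgeR's quasi-likelihood test with Benjamini-Hochberg adjustment over all tested genes, threshold 0.05; the adjusted p-values below are from this test). Of all 15885 tested genes 23.0% were higher by the same rule and 24.8% were lower. The median log2 fold change of the 10 chains was 1.21, against 0.01 over all tested genes, and 8 of the 10 rose at least 2-fold, as did 7.93% of tested genes. The libraries of both groups did not overlap, with NICD_mut higher, for each of the 10 chains and for 32.9% of tested genes. Together the 10 chains took 0.69 and 0.773% of all counts in NICD_mut and 0.283 to 0.336% in NICD_wt. RNA of a whole kidney cannot tell more cells of a type from more RNA per cell.

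**Figure D1:**
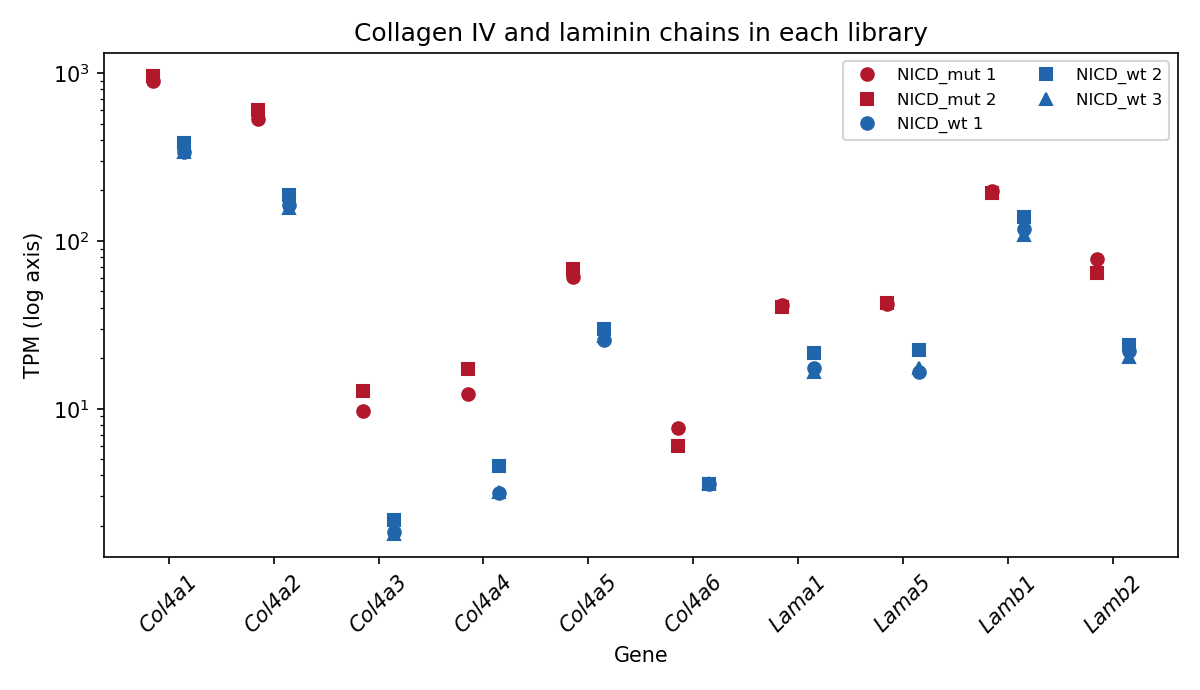
Level of each chain in TPM (log axis) in the 5 libraries; each point is 1 library, red for NICD_mut and blue for NICD_wt, with the replicate number as the shape. For every chain both NICD_mut points lie above all 3 NICD_wt points, and the chains span from 1.78 TPM (Col4a3 in NICD_wt 3) to 963 TPM (Col4a1 in NICD_mut 2).

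Each collagen IV gene lies beside a partner that is transcribed in the opposite direction from a neighbouring start (mm10, GENCODE annotation). Col4a1 (chromosome 8, 11198423 to 11312826, minus strand) and Col4a2 (chromosome 8, 11312805 to 11449287, plus strand) overlap by 22 bases at their starts. Col4a4 (chromosome 1, 82448423 to 82586849, minus strand) and Col4a3 (chromosome 1, 82586921 to 82722059, plus strand) are 71 bases apart. Col4a6 (chromosome X, 141165403 to 141474076, minus strand) and Col4a5 (chromosome X, 141475385 to 141689234, plus strand) are 1308 bases apart. The laminin genes lie on different chromosomes: Lama1 on chromosome 17 (67697259 to 67822647, plus strand), Lama5 on chromosome 2 (180176373 to 180225859, minus strand), Lamb1 on chromosome 12 (31265234 to 31329644, plus strand) and Lamb2 on chromosome 9 (108479736 to 108490530, plus strand). Of the exonic bases of Col4a3, 5.65% also belong to an annotated gene named C430014B12Rik; in the other 9 genes at most 0.98% are shared. The strand setting of the counting is not given in the sources used here, so reads from such shared bases could not be assigned by strand.

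Start regions are shown for the pair that rose most (Col4a3 and Col4a4), for the β chains, whose ratio did not overlap between groups, and for the pair on chromosome X. Each is the stretch of a RefSeq promoter window (GRCm38.p6, the build called mm10) that no annotated exon covers, read 5′ to 3′ on the strand of the gene named first. Capitals mark TGGGAA, the core letters of the site of RBPJ, the DNA-binding partner of activated Notch, or CCAAT, a common promoter element, on either strand (TTCCCA and ATTGG on the other). Matches did not overlap each other in these stretches.
Col4a4 and Col4a3, the whole interval between both starts, chr1:82586850-82586920, minus strand: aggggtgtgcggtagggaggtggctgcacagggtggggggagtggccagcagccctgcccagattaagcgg
Lamb1, chr12:31265043-31265233, plus strand: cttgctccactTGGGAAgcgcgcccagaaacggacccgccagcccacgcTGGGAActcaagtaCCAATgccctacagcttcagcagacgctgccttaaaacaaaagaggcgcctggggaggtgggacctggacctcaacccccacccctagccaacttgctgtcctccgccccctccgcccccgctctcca
Lamb2, chr9:108479612-108479735, plus strand: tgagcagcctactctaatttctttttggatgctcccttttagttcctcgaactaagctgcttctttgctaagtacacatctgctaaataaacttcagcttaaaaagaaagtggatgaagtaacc
Col4a5, chrX:141475169-141475384, plus strand: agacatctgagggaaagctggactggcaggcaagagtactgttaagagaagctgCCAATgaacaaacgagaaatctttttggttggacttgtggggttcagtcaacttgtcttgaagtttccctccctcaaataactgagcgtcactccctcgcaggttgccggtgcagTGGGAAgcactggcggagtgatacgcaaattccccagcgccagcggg
Col4a6, chrX:141474077-141474326, minus strand: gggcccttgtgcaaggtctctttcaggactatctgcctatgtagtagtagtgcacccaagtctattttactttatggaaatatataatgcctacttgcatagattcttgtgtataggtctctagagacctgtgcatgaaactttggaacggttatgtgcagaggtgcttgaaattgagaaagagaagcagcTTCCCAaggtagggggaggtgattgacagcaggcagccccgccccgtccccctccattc
RefSeq windows of 300 bases matched 8 of the 10 members; Col4a3 and Lama1 had none. TGGGAA was in 3 of the 8 windows (Col4a5, Col4a6 and Lamb1), and in 25.6% of all 32851 windows. CCAAT was in 4 of the 8 (Col4a1, Col4a2, Col4a5 and Lamb1) and in 37.4% of all windows. TAATTA, a homeodomain core that reads the same on both strands, was in none of the 8 and in 5.29% of all. The interval between Col4a4 and Col4a3 has a GC content of 69%, and the stretches before Lamb1 and Lamb2 have 63.9 and 37.9%. These are matches of letters in a short window and not bound sites.

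Col4a3 and Col4a4 had the largest rises of the 10. Col4a3 was at 9.67 and 12.8 TPM in NICD_mut and at 1.83, 2.16 and 1.78 TPM in NICD_wt. The lower NICD_mut library was thus well above the highest NICD_wt library. Its fold change was 5.37 (log2 fold change 2.42, SE 0.16; adjusted p = 1.88e-05), and 1.91% of tested genes had a larger one. Col4a4 was at 12.2 and 17.2 TPM against 3.13, 4.58 and 3.17 TPM, with NICD_wt 2 the highest of its group for both genes. Its log2 fold change was 1.90 (SE 0.26; adjusted p = 0.00352). Both chains were scarce next to Col4a1: together they made 1.44 and 1.79% of the summed collagen IV TPM in NICD_mut and 0.928 to 1.1% in NICD_wt.

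Col4a5, the X-linked chain that joins α3 and α4 in the filter network and α6 elsewhere, was the most abundant of the mature collagen chains. Its level was 61.1 and 68.5 TPM in NICD_mut and 25.7, 29.9 and 27.1 TPM in NICD_wt, and its log2 fold change was 1.15 (SE 0.10; adjusted p = 4.4e-05). The rise was below that of Col4a3, so that the ratio of Col4a3 to Col4a5 went from 0.0711, 0.0722 and 0.0656 in NICD_wt to 0.158 and 0.187 in NICD_mut. Col4a6 had the smallest rise among the collagen IV chains: 7.70 and 5.99 TPM against 3.55, 3.57 and 3.62 TPM, a log2 fold change of 0.81 (SE 0.12; adjusted p = 0.000668). The ratio of Col4a6 to its neighbour Col4a5 overlapped between groups, at 0.126 and 0.0875 against 0.119 to 0.138.

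Col4a1 and Col4a2 form the ubiquitous network and dominated collagen IV transcripts in every library. Col4a1 was at 900 and 963 TPM in NICD_mut and at 337, 385 and 337 TPM in NICD_wt, and its log2 fold change was 1.28 (SE 0.08; adjusted p = 2.59e-05). Col4a2 was at 533 and 605 TPM against 163, 188 and 158 TPM, a log2 fold change of 1.62 (SE 0.11; adjusted p = 0.000111). Col4a2 thus rose by more than the partner gene with which it shares a start region. Transcripts of Col4a1 per transcript of Col4a2 numbered 2.07, 2.04 and 2.14 in NICD_wt and 1.69 and 1.59 in NICD_mut, without overlap. The summed level of all 6 chains was 1524 and 1672 TPM in NICD_mut and 530 to 614 TPM in NICD_wt. Within that sum the share of Col4a1 was 59 and 57.6% against 62.7 to 63.5%, and that of Col4a2 was 35 and 36.2% against 29.7 to 30.7%.

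**Figure D2:**
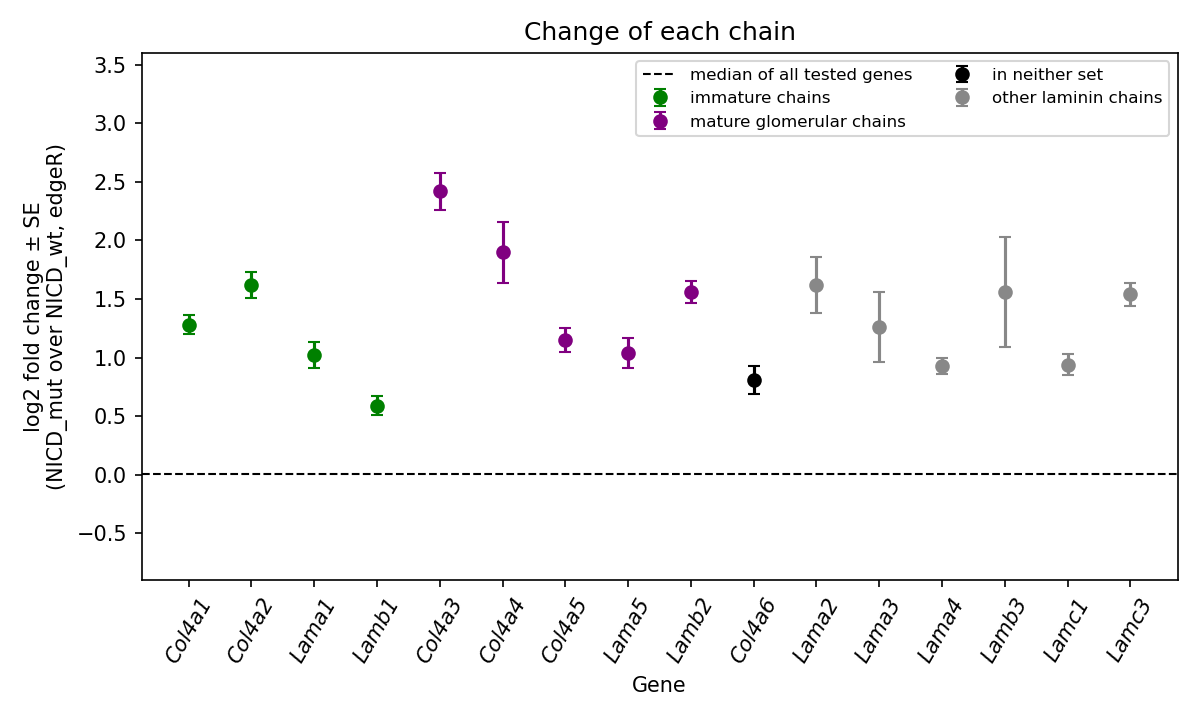
Log2 fold change of each chain (NICD_mut over NICD_wt, edgeR fit on counts) with its SE, coloured by set; the dashed line is the median of all tested genes, 0.01. All 10 members lie above the line, from 0.59 (Lamb1) to 2.42 (Col4a3), and so do the 6 other laminin chains plotted.

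The laminin β chains rose unequally. Lamb2, the β chain of the mature filter, was at 78 and 64.3 TPM in NICD_mut and at 22, 24 and 20.4 TPM in NICD_wt. Its log2 fold change was 1.56 (SE 0.09; adjusted p = 5.5e-06), the smallest adjusted p of the 10 members. Lamb1, the early β chain, was at 198 and 194 TPM against 118, 138 and 109 TPM. At a log2 fold change of 0.59 (SE 0.08; adjusted p = 0.000496) it had the smallest rise of the 10. The ratio of Lamb2 to Lamb1 was 0.393 and 0.331 in NICD_mut and 0.186, 0.174 and 0.187 in NICD_wt, 1.99 times higher on average. Lamb2 made 27.7 and 24.7% of the TPM of the 3 β chains in NICD_mut and 14.7 to 15.6% in NICD_wt, yet Lamb1 remained the main β chain in all 5 libraries.

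The α chains rose side by side. Lama1, the early chain, was at 41.7 and 40.5 TPM in NICD_mut and at 17.6, 21.5 and 16.6 TPM in NICD_wt, and its log2 fold change was 1.02 (SE 0.11; adjusted p = 0.000276). Lama5, its successor, was at 42.1 and 42.6 TPM against 16.5, 22.5 and 17.6 TPM, a log2 fold change of 1.04 (SE 0.13; adjusted p = 0.00124). Without NICD_mut 2 the Lama5 change was 0.99 and did not pass (adjusted p = 0.0532); that fit rests on 1 NICD_mut library, assumed to vary like the others. The ratio of Lama5 to Lama1 was 1.01 and 1.05 in NICD_mut and 0.937 to 1.06 in NICD_wt, so the groups overlapped.

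Within the mature set Col4a3, Col4a4 and Lamb2 had larger log2 fold changes than Col4a5 and Lama5, which had 1.15 and 1.04. Of the immature chains, Col4a1 and Lama1 had 1.28 and 1.02, Lamb1 had 0.59 and Col4a2 had 1.62. Col4a2 thus rose more than the mature chains Lamb2 (1.56), Col4a5 and Lama5. The mature set's median log2 fold change of 1.56 stood against 1.15 for the immature chains, a difference of 0.41. Without NICD_mut 1 that difference was 0.25, and without NICD_mut 1 and NICD_wt 1 it was 0.28. Averaged over each set, mature minus immature log2 CPM was -2.95 and -2.84 in NICD_mut and -3.42, -3.33 and -3.37 in NICD_wt, a gap without overlap. By pair, the ratio of mature to immature chain was higher in both NICD_mut libraries than in any NICD_wt library for Lamb2 to Lamb1 and for Col4a3 to Col4a1 (0.0107 and 0.0133 against 0.00529 to 0.00561). It overlapped between groups for Lama5 to Lama1, and was lower in NICD_mut for Col4a5 to Col4a1 (0.0679 and 0.0711 against 0.0763 to 0.0806). Both collagen pairs used Col4a1 as the immature chain. No mature chain was set against Col4a2, which rose more than Col4a1, so the result by pair depends on the partner chosen. With 2 libraries against 3 an exact two-sided rank-sum test of such a ratio cannot give a p below 0.2, so these differences are descriptions.

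**Figure D3:**
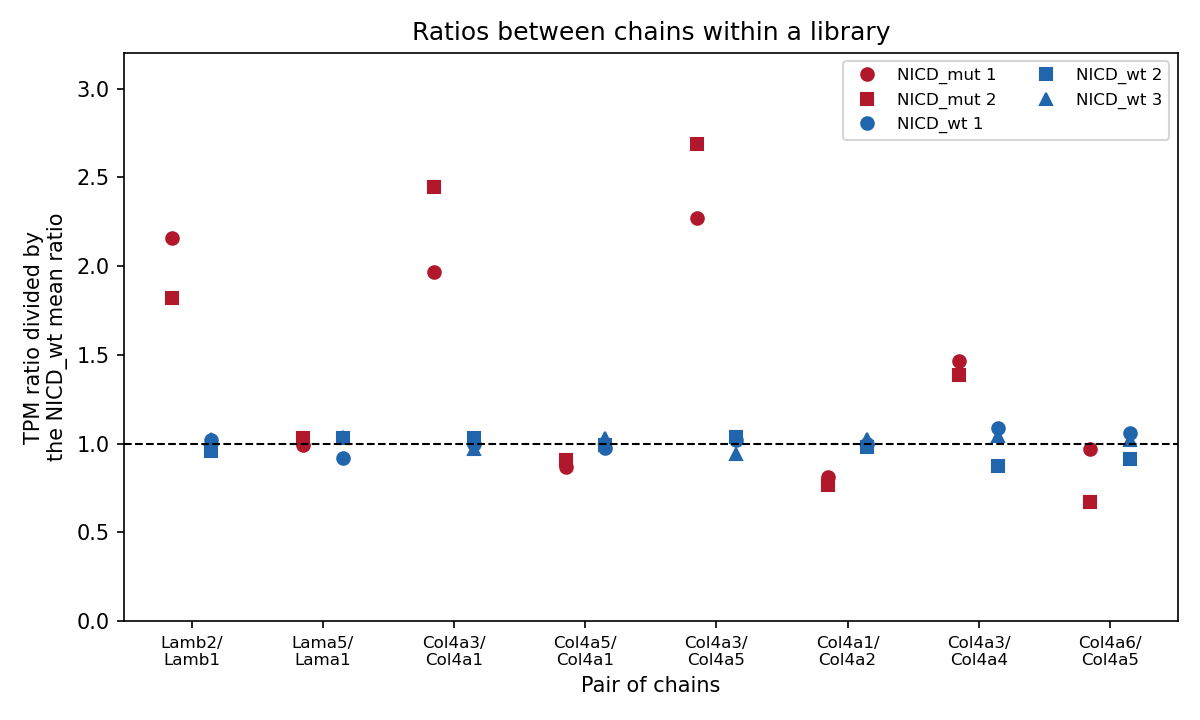
TPM ratio of chain pairs in each library, divided by the mean ratio in NICD_wt; points are libraries, and the dashed line marks the NICD_wt mean. Ratios of Lamb2 to Lamb1, Col4a3 to Col4a1, Col4a3 to Col4a5 and Col4a3 to Col4a4 lie above the line in both NICD_mut libraries. Lama5 to Lama1 stays at it. Col4a1 to Col4a2 and Col4a5 to Col4a1 lie below it without overlap between groups, and Col4a6 to Col4a5 lies below it with overlap.

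The order of the levels differed little between groups. In NICD_wt the order by mean TPM was Col4a1 (353 ± 27.8, SD, n = 3), Col4a2 (170 ± 16.5), Lamb1 (122 ± 14.9), Col4a5 (27.6 ± 2.13), Lamb2 (22.1 ± 1.83), Lama5 (18.9 ± 3.2), Lama1 (18.6 ± 2.59), Col4a4 (3.63 ± 0.826), Col4a6 (3.58 ± 0.0361) and Col4a3 (1.92 ± 0.206). Of these neighbours, Lamb2 and Lama5, Lama5 and Lama1, and Col4a4 and Col4a6 overlapped in their library values. In NICD_mut the mean of Lamb2 (71.1 ± 9.70, SD, n = 2) was above that of Col4a5 (64.8 ± 5.23), with overlapping libraries, and Col4a3 (11.2 ± 2.22) was above Col4a6 (6.85 ± 1.21), without overlap; Col4a4 and Col4a3 overlapped there.

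The 6 other laminin chains described here rose as well, with a median of 1.4 (0.89 without NICD_mut 1, where 5 rose). Lamc1, the γ chain of most laminins, was at 193 and 190 TPM in NICD_mut and 84.5 to 103 TPM in NICD_wt, and its log2 fold change was 0.94 (SE 0.09; adjusted p = 0.000118). Lamc3, a rarer γ chain, rose by 1.54 (SE 0.10), and Lama4, a chain of vessel walls, by 0.93 (SE 0.07). Lama3 and Lamb3, epithelial laminin chains, rose by 1.26 (SE 0.30) and 1.56 (SE 0.47), but unevenly: Lamb3 was at 5.15 TPM in NICD_mut 1, 1.49 in NICD_mut 2 and 0.95 to 1.11 in NICD_wt. Lama3 was at 4.5 TPM in NICD_mut 1, 1.71 in NICD_mut 2 and 0.91 to 1.29 in NICD_wt. Its change was 0.66 without NICD_mut 1 and did not pass by limma on log2(TPM + 1) (adjusted p = 0.0843). Without NICD_mut 1 the Lamb3 change was 0.45 and did not pass (adjusted p = 0.349), and neither did it pass without any 1 NICD_wt library. Lama2, the laminin α chain of muscle, rose by 1.62 (SE 0.24). Its level was 19 TPM in NICD_mut 1, the library with the most muscle transcripts, and 11.9 TPM in NICD_mut 2. In NICD_wt it was at 3.6 to 6.58 TPM. The part of muscle RNA in its rise was not tested.

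Other components of the basement membrane were mostly higher too. Of 22, 17 rose, 1 fell and 4 did not pass, with a median of 0.90 (0.65 without NICD_mut 1). Nid1, the nidogen that bridges laminin and collagen IV, was at 277 and 286 TPM against 63.2 to 74.3 TPM, a log2 fold change of 1.89 (SE 0.08; adjusted p = 1.22e-06). Agrin (Agrn), a heparan sulphate proteoglycan of the glomerular filter, rose by 1.5 (SE 0.08) and the second nidogen, Nid2, by 0.93 (SE 0.08). Hmcn1, which encodes the large matrix protein hemicentin, fell by 0.82 (SE 0.10) on the log2 scale.

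Genes of collagen modification and assembly, listed here for collagen IV, moved less. Of 20, 10 rose, 1 fell and 9 did not pass, with a median of 0.32. Without NICD_mut 1 the median was 0.11 and 8 rose. The prolyl hydroxylase P3h1 rose by 0.74 (SE 0.06), the oxidase Qsox1 by 0.79 (SE 0.09) and peroxidasin (Pxdn), which crosslinks collagen IV, by 0.54 (SE 0.06). Creld2, an endoplasmic reticulum protein, fell by 0.45 (SE 0.08). The collagen chaperone Serpinh1 had a log2 fold change of -0.06 (SE 0.06) and did not pass.

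Receptors and matrix proteases were also mostly higher. Of 14 receptors and their partners 10 rose, 1 fell and 3 did not pass, with a median of 0.52. Dystroglycan (Dag1), a laminin receptor, rose by 0.91 (SE 0.07), the shared integrin chain Itgb1 by 0.39 (SE 0.05) and Itga1, a collagen-binding integrin, by 0.70 (SE 0.09). Itga8, an integrin of the mesenchyme, was the gene that fell, at -0.80 (SE 0.11). Of 10 tested proteases and inhibitors 7 rose and 3 did not pass, with a median of 0.69. The protease Adamts1 rose by 1.58 (SE 0.06), the membrane protease Mmp14 by 0.97 (SE 0.05) and the inhibitor Timp2 by 0.81 (SE 0.07).

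**Figure D4:**
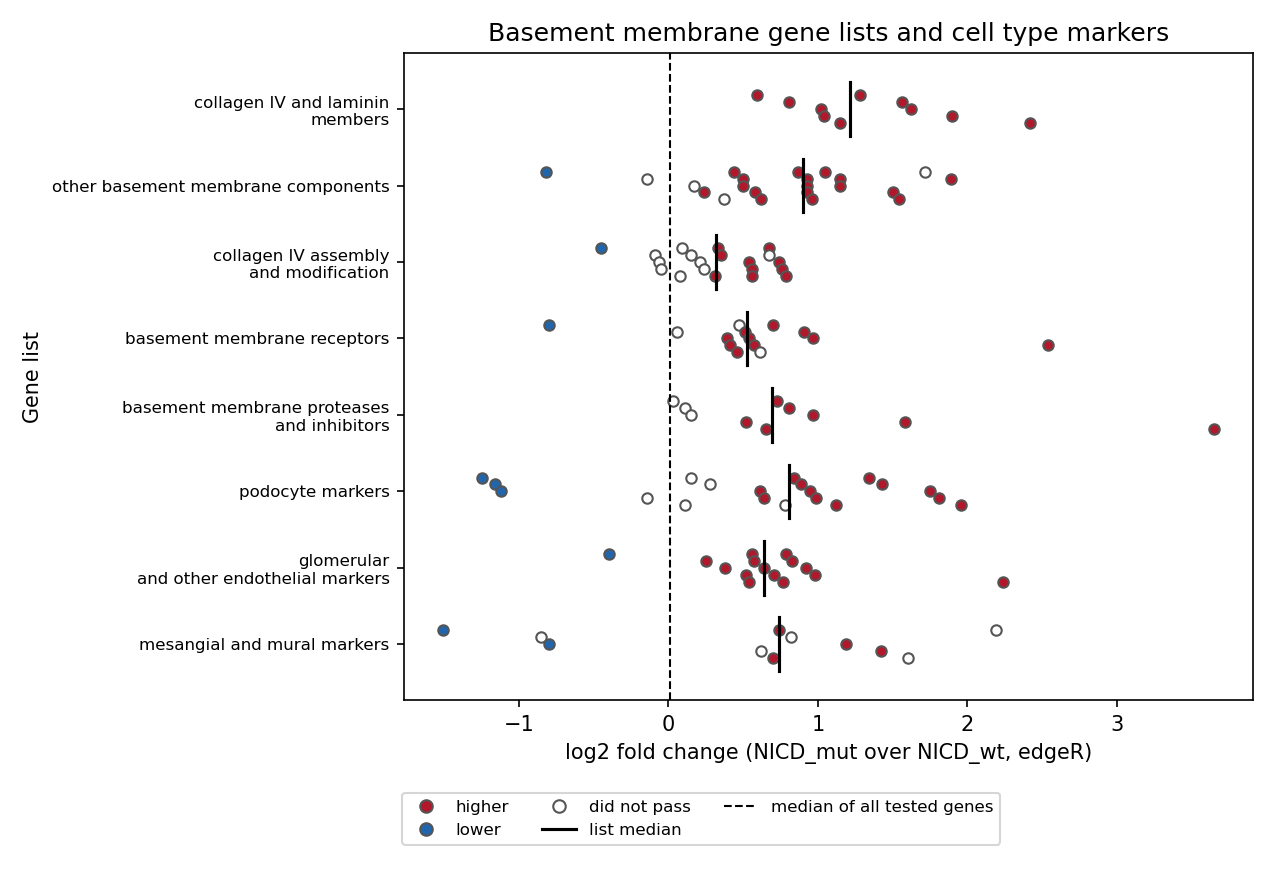
Log2 fold change (NICD_mut over NICD_wt, edgeR) of every tested gene in 8 gene lists (the members, 4 lists of other basement membrane genes and 3 marker lists); filled red points rose, blue points fell, open points did not pass the test, and the vertical bar is the list median. The 10 collagen IV and laminin members have a median of 1.21, and the other 7 lists plotted have medians from 0.32 (assembly and modification) to 0.90 (other basement membrane components).

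Podocyte and endothelial markers were mostly higher in NICD_mut as well, and mesangial and mural markers went both ways. Of 20 podocyte markers 12 rose, 3 fell and 5 did not pass. Their median was 0.81 (1.1 without NICD_mut 1 and 0.52 without NICD_mut 2). Their summed level was 1389 and 1768 TPM in NICD_mut against 961 to 1007 TPM in NICD_wt. That sum includes Tcf21, which also counts among the stromal markers and did not pass. Tcf21 was at 269 and 281 TPM in NICD_mut and at 265 to 286 TPM in NICD_wt. Plce1, a phospholipase of podocytes, rose by 1.43 (SE 0.10), as did Kirrel, of the slit diaphragm, by 0.64 (SE 0.08), while Robo2 fell by 1.25 (SE 0.12). Of 15 endothelial markers 14 rose and 1 fell, with a median of 0.64, and their summed level was 1520 and 1982 TPM against 762 to 836 TPM. Much of that difference was Cldn5, the marker with the largest rise in the list (2.24). Cldn5 alone was at 534 and 871 TPM in NICD_mut and at 134 to 142 TPM in NICD_wt. The receptor Kdr rose by 0.98 (SE 0.08), the junction gene Cdh5 by 0.83 (SE 0.07) and the receptor Tek by 0.79 (SE 0.08), while Ehd3 fell by 0.40 (SE 0.10). Of 11 mesangial and mural markers 4 rose, 2 fell and 5 did not pass, with a median of 0.74 (-0.36 without NICD_mut 1). The pericyte gene Cspg4 rose by 1.42 (SE 0.10) and Rgs5 by 0.74 (SE 0.08). Those that fell were Gata3, by 1.51 (SE 0.12), and Itga8. Each also counts in another list, Gata3 among the ureteric markers and Itga8 among the receptors. The summed level of the mesangial and mural markers was 1190 TPM in NICD_mut 1, 597 in NICD_mut 2 and 536 to 703 in NICD_wt. Among markers of other cells, 9 of 12 proximal tubule, 4 of 9 stromal (2 without NICD_wt 3) and 5 of 6 macrophage genes rose, and 7 of 9 ureteric and 6 of 8 progenitor genes fell. No marker of these lists was at 0 in all libraries. For comparison, the 4 immature chains summed to 1673 and 1802 TPM against 620 to 733 TPM, and the 5 mature chains to 203 and 205 TPM against 69.2 to 83.2 TPM. How far the number of podocytes, endothelial or mural cells accounts for any chain's level was not tested.

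Likeness of pattern was measured as the Euclidean distance between log2 CPM profiles over the 5 libraries, each centred on its own mean, among 13495 other genes; it mostly reads the size of the difference between groups. Nearest to Col4a1 was Notch1 (distance 0.0717), whose counts may hold reads of the transgene, followed by Sfmbt2 and Arhgap27. Nearest to Col4a2 were Tenm4 (0.0722), Igfbp7 and the amino acid transporter Slc7a8. Nearest to Col4a3 were Dpp10 (0.126), Adam12 and Pcp4, and nearest to Col4a4 were Hsd17b14 (0.2), Slc5a9 and Ptpro, a phosphatase of podocyte foot processes. Head-to-head partners were not each other's nearest genes: Col4a4 ranked 70 from Col4a3, Col4a2 ranked 283 from Col4a1, and Col4a6 ranked 884 from Col4a5. Nearest to Lamb2 was Map1b (0.127) and nearest to Lamb1 was Cic (0.0377).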

How the data were processed

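The authors deposited estimated counts per gene symbol and TPM values for whole kidneys in 5 libraries; the estimated counts are whole numbers. RSEM, Bowtie2 and mm10 are named per the submitters' processing notes; their versions, the annotation and strandedness are not given in the sources. Columns were matched to samples by title.

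Counts were scaled by TMM, filtered with filterByExpr (minimum count 10, minimum total count 15) and tested with the edgeR 4.0.16 quasi-likelihood test (robust dispersion) in R 4.3.3, comparing the groups with no covariate and adjusting over 15885 genes by Benjamini-Hochberg and a threshold of 0.05. SEs come from the quasi-likelihood F statistic. TPM was used for levels and ratios between chains. Fits were tested on simulated counts. Alternatives used DESeq2 1.42.0, limma 3.58.1, other scalings and filters, TPM with pseudocounts of 1 and 0.1, a replicate block and libraries left out. Named genes were all members, other laminin chains, and per further list up to 3 genes with the smallest adjusted p past the threshold plus any that alone moved against its list; other genes were named for context after their values were seen; not every result under this rule is reported here. Members, lists and tests were chosen with earlier results of these data known. Coordinates are from GENCODE M21 and promoters from RefSeq. Plots used matplotlib 3.10.9 (Python 3.11.15).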

Additional observations from a re-analysis of the deposited data

How the results depend on the processing

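All 10 members kept direction and call in 159 of 160 combinations of member and alternative (16 alternatives); the exception was Lama5 without NICD_mut 2, where 9 members passed. Leaving out each library in turn gave 9 to 10 members higher, 5898 to 8050 genes called, and a mature minus immature difference of 0.25 to 0.49. That difference was 0.28 without NICD_mut 1 and NICD_wt 1 together; the cause was not tested. Fits that keep 1 NICD_mut library have no spread within that group. They take it from NICD_wt, whose libraries differed less from each other than the NICD_mut libraries did. By limma on log2(TPM + 1) the median of all genes moved to 0.106 from 0.013, and all 10 members passed, at least 0.69 higher each. With the replicate block, 10 members passed, 5535 genes were called and the other laminin chains that rose numbered 3 of 6, with Lama2, Lama3 and Lamb3 not passing. Same-numbered libraries deviated together with correlations of 0.34 and 0.15, but the labels do not say that a number marks a litter or a day, and 2 pairs cannot establish pairing. Col4a3 had the fewest counts of the 10 members in NICD_wt, 167 to 252 per library.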
